A study of Homo sapiens with 2 samples.

Results

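The 10 genes described here are NF-kB feedback genes and chemokines in HCT116 cells, an established human colon cancer cell line. They were the feedback and signalling genes TNFAIP3, NFKBIA, NFKB1, NFKB2, RELB and BIRC3, and the chemokine genes CXCL1, CXCL2, CXCL8 and CCL20. The genes were selected on results of the same arrays, and every probe that carried a RefSeq transcript accession of one of them was taken, whatever its value. This gave 12 of the 50599 non-control probes and 10 of the 11994 genes compared. The choice was thus made from the contrast reported below, and the differences of these genes are a description with no test.

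The study asked how a short non-coding RNA of the HOXA5 locus, named HOXA5 short RNA, which skips the first HOXA5 exon, acts in colon cancer cells. HCT116 cells carried a pEB vector, an episomal plasmid, either in its mock version (mock) or expressing the transcript (HOXA5 short), and both groups were kept in blasticidin for 2 weeks to select the transfected cells. Total RNA labeled with the dye Cy3 was hybridized to 1 Agilent array per group, in a single color. The labels give the mock sample as the control genotype and describe no clone, so each array stands for 1 selected cell population.

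NF-kB is a family of transcription factors whose subunits wait in the cytoplasm, held by inhibitors of the IkB family or as unprocessed precursors, until kinases of the IKK complex release them. Active NF-kB binds kB motifs in promoters and enhancers and switches on genes for inflammation and survival, among them its own inhibitors, which close a negative feedback loop. Chemokines are secreted proteins that attract leukocytes, and colon epithelial cells make several of them when NF-kB is active.

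The HOXA5 probe (NM_019102) was examined first as a check of the labels. Its processed signal, which is the spot brightness after background correction, was 39.4 ± 4.32 in mock cells and 346 ± 34.6 in HOXA5 short cells, where ± is the error that the scanner software gives for the spot. After each array was scaled to its own 75th percentile, the log2 difference, HOXA5 short minus mock, was 2.83, a 7.11-fold higher signal. Probe sequences were not used, so this signal cannot be divided between HOXA5 short RNA and other HOXA5 transcripts. Of the non-control probes, 36.4% (mock) and 37.5% (HOXA5 short) were well above background. Of 7 colon epithelial markers, 6 were compared, from -0.10 for CDX2 to 0.18 for KRT18, and VIL1 was not well above background. Of 7 myeloid and lymphoid markers on the array, CD68 was compared (0.05), CD14 was detected on 1 array, and PTPRC, ITGAM, CSF1R, CD3E and MS4A1 were on neither array well above background. Of 8 fibroblast and endothelial markers, COL1A1 was compared (0.13) and the other 7 were not well above background. In RNA from whole cultures, a change in the share of cells with a transcript and a change in its amount per cell cannot be told apart.

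All 10 genes were well above background on both arrays, and none of their spots was saturated or marked as an outlier. TNFAIP3 was the 1 gene of 10 that reached a 2-fold higher signal in HOXA5 short cells, where 0.642% of all genes compared were. None of the 10 was at least 2-fold lower (0.258% of all genes). At 1.5-fold the count was 3, with CXCL1 and CXCL2 added (2.78% of all genes). Of the 10 genes, 8 lay above 0, as did 45.4% of all genes. Their median log2 difference was 0.22, against -0.02 over all genes. It was 0.15 for the 6 feedback and signalling genes and 0.57 for the 4 chemokines. Because the genes were chosen from this contrast, these counts and medians describe the choice as well as the cells.

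**Figure D1:**
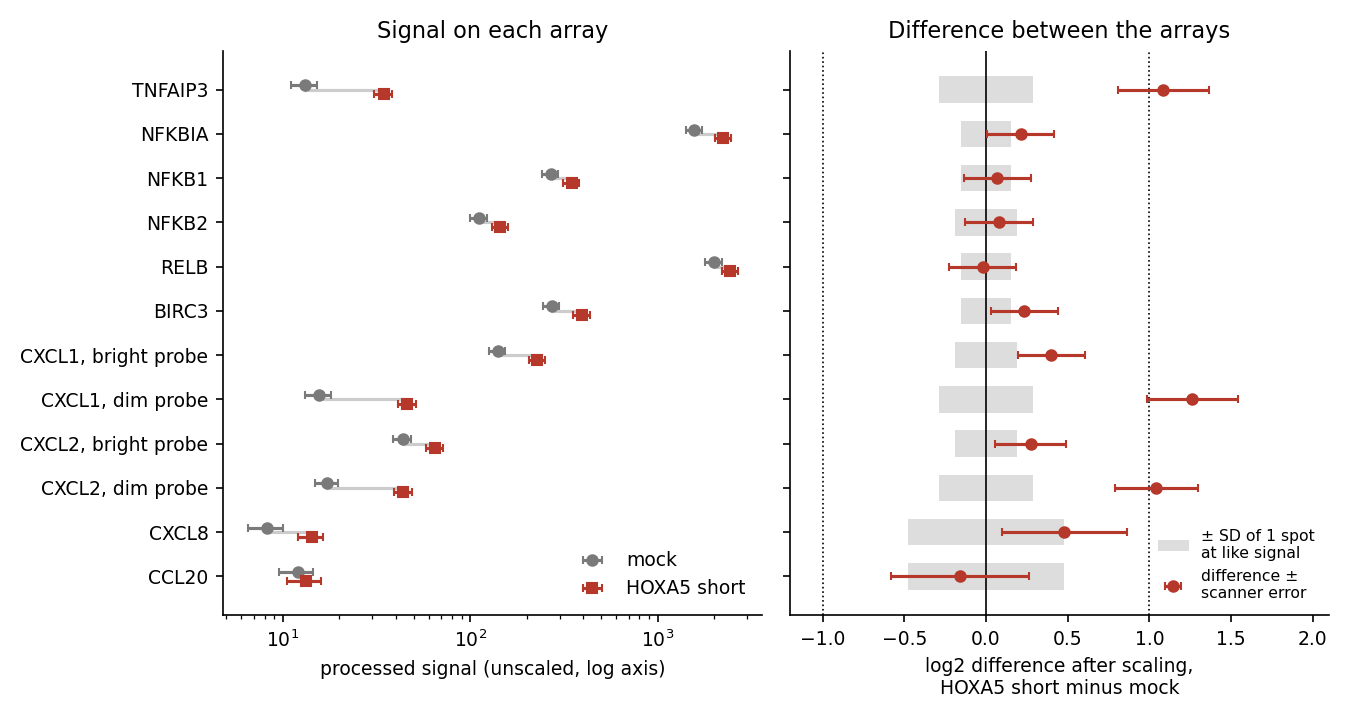
Processed signal of the 12 probes on both arrays (left, log axis, unscaled, bars show the error of the scanner software) and log2 difference after scaling, HOXA5 short minus mock (right, bars show the error carried over from both arrays). Grey bands show 1 SD of a single spot at like signal on either side of 0, and dotted lines mark 2-fold. The TNFAIP3 probe and the dim probes of CXCL1 and CXCL2 lie at 1.09, 1.26 and 1.04, and the other 9 probes lie between -0.16 and 0.48.

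The promoters of 5 genes are shown because they set the 4 genes with the largest differences beside CCL20, whose difference was within the spread of a single spot. Each is the RefSeq window on GRCh38.p14 from 250 bases before to 50 bases after the start, read 5′ to 3′ on the strand of the gene. Capitals mark matches to the kB consensus of 10 letters or to the 9 letters GGAANTTCC, searched on both strands. The windows are TNFAIP3 at chr6:137867009-137867308 (plus strand), CXCL1 at chr4:73869143-73869442 (plus), CXCL2 at chr4:74099146-74099445 (minus), CXCL8 at chr4:73740319-73740618 (plus) and CCL20 at chr2:227813592-227813891 (plus).
TNFAIP3: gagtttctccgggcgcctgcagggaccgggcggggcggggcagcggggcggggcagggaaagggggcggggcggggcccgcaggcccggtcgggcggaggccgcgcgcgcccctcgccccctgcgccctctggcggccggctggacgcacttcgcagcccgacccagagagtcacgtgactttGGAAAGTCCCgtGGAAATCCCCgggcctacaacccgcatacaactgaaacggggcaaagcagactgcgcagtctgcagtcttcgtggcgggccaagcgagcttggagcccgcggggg
CXCL1: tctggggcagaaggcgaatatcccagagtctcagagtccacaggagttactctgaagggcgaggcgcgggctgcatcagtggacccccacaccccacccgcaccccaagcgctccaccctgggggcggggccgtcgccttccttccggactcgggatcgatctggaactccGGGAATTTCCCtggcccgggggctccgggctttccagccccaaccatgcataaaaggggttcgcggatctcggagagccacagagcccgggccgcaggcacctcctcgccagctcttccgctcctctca
CXCL2: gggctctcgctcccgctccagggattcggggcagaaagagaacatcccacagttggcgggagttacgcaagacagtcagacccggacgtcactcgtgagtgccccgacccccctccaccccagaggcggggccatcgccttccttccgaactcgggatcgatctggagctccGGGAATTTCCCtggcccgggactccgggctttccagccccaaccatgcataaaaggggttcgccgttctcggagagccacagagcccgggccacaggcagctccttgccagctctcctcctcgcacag
CXCL8: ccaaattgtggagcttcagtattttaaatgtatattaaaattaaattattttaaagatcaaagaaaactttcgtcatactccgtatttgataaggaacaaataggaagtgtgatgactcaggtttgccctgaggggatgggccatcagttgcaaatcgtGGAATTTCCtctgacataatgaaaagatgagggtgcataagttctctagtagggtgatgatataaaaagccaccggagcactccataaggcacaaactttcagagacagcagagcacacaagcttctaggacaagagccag
CCL20: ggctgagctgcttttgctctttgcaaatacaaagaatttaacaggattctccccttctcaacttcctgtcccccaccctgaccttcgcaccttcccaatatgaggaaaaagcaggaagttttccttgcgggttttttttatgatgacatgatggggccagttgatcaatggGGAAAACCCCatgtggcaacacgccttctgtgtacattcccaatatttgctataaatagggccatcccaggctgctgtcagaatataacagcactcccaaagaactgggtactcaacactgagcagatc

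A match is a run of letters and is not evidence of binding. The kB consensus was found in 9 of the 12 windows listed for 9 of the genes, and in 11.3% of all 35116 windows. RELB had no window. The genes were grouped by their known link to NF-kB, so this share describes how they were grouped. GGAANTTCC, which was chosen after the matches were seen and overlaps the consensus wherever both occur, was found in 5 of the 12 windows and in 0.965% of all. The TNFAIP3 window held 2 consensus matches, on the strand opposite to the gene, at 67 and 55 bases before the start. In CXCL1 the 2 overlapping consensus matches began 79 and 78 bases before the start, and in CXCL2 they began 78 and 77 bases before it. The windows of CXCL1 and CXCL2 were alike beyond this motif, with 69.7% identical positions in a global alignment, against 43.1% between CXCL1 and CXCL8. In CXCL8 the 9 letters were found 91 bases before the start, and the consensus was not in this window. The CCL20 window held 1 consensus match at 79 bases before the start. Whether these letters go with the differences was not tested.

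Among the feedback genes, TNFAIP3 had the largest difference. It encodes A20, a ubiquitin-editing enzyme that is induced by NF-kB and restrains the signalling that activates it. The probe (NM_006290) gave a processed signal of 13.2 ± 2.08 in mock cells and 34.5 ± 3.89 in HOXA5 short cells. The scanner errors of the 2 signals did not overlap, with the HOXA5 short signal the higher, but both signals are unscaled. Those of NFKB2 (111 ± 11.2 and 145 ± 14.6) did not overlap either, at a scaled log2 difference of 0.08. Such non-overlap is thus no measure of a scaled difference, and its share over all probes is not given here. After scaling, the log2 difference was 1.09 with an error of 0.28, or 2.12-fold, at rank 62 from the highest of all genes compared. The SD of a single spot between the arrays, taken from probes printed in 10 spots, was 0.29 at signals from 15 to 50. This class holds the geometric mean of the 2 signals. The mock signal alone falls in the class from 5 to 15, where the SD was 0.48. None of the 25 well-measured spots around the TNFAIP3 spot differed 2-fold. The value rests on 1 dim spot per array. With normexp background correction, which adds an offset of 50 to the signals, the difference was 0.32, so that the 2-fold call was lost. The offset is larger than both TNFAIP3 signals and shrinks their difference, so this setting cannot decide the call.

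NFKBIA encodes IkB-alpha, the inhibitor that is degraded on activation and then made again by NF-kB. Its probe (NM_020529) was printed in 10 spots, which makes it a better measured gene than TNFAIP3. The unscaled signals of the copies ran from 1451 to 1685 on the mock array, with a median of 1575, and from 2140 to 2364 on the HOXA5 short array, with a median of 2235. The signals of the copies did not overlap between the arrays, but they are unscaled, and the HOXA5 short array was the brighter one over all probes. The scaled log2 difference was 0.21 ± 0.078 (SD, n = 10 copies), a ratio of 1.16, and 10 of 10 copies lay above 0. The copies of a probe share 1 RNA sample per array, so their SD holds no spread between cultures. How many other probes printed in 10 spots had no overlap, or all copies on the same side of 0, is not given here.

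NFKB1 encodes p105, the precursor of the p50 subunit, and itself a target of NF-kB. The 10 copies of its probe (NM_003998) ran from 240 to 295 on the mock array, with a median of 274, and from 334 to 370 on the HOXA5 short array, with a median of 348. The scaled log2 difference was 0.07 ± 0.12 (SD, n = 10 copies), with 5 copies above 0 and 5 below. The NFKB1 difference was thus smaller than the SD of its copies, yet the unscaled copies did not overlap between the arrays here either. Such non-overlap of unscaled copies can occur without a scaled difference and is no measure of one. For comparison, the 10-copy probe of RELA, the main activating partner of p50, gave -0.13 ± 0.12 (SD, n = 10 copies), with 10 of 10 copies below 0. A single-spot RELA probe gave 0.09, so the RELA probes differed in sign.

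**Figure D2:**
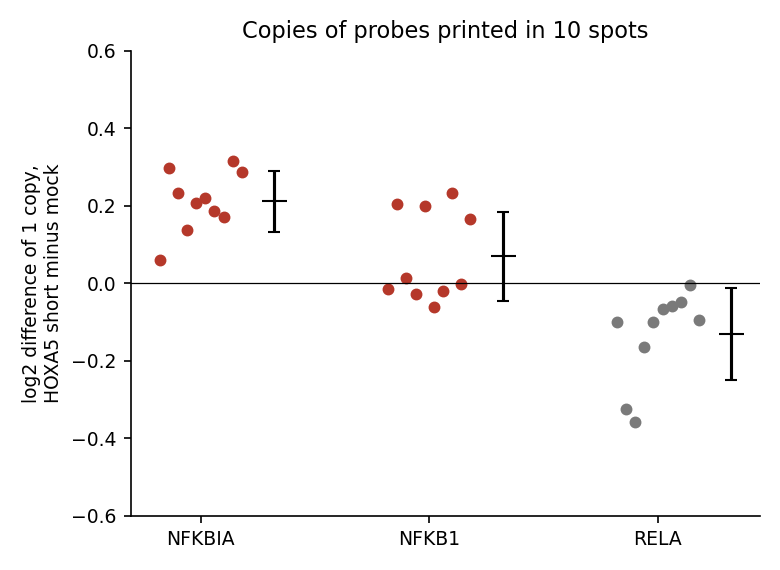
Log2 difference, HOXA5 short minus mock, of each of the 10 printed copies of the NFKBIA, NFKB1 and RELA probes after scaling, with mean and SD over copies (black). All NFKBIA copies lie between 0.06 and 0.32, the NFKB1 copies lie on both sides of 0, and all RELA copies lie below 0.

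NFKB2 and RELB form the p52/RelB dimer of the alternative pathway, p52 being made from the NFKB2 precursor p100. The NFKB2 probe (NM_001288724) gave 111 ± 11.2 in mock cells and 145 ± 14.6 in HOXA5 short cells, a scaled log2 difference of 0.08. The RELB probe (NM_006509) gave 1999 ± 200 and 2434 ± 243, in the same order, a scaled log2 difference of -0.02. Both differences were smaller than the SD of a single spot at like signal, which was 0.19 for signals from 50 to 200 and 0.15 above 200. The sign of RELB depended on the scaling, with 0.08 after scaling to the median of each array.

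BIRC3 encodes cIAP2, a ubiquitin ligase that protects cells downstream of TNF receptors and is induced by NF-kB. Its probe (NM_001165) gave 272 ± 27.2 in mock cells and 395 ± 39.5 in HOXA5 short cells. The scaled log2 difference was 0.23 with an error of 0.20, larger than the SD of a single spot at like signal. None of the 29 spots around it differed 2-fold.

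CXCL1 and CXCL2 encode chemokines that attract neutrophils through the receptor CXCR2. Each gene had a pair of probes for the same transcript, and in both genes the dim probe gave a larger difference than the bright one. The bright CXCL1 probe (NM_001511) gave 140 ± 14.1 in mock cells and 228 ± 22.9 in HOXA5 short cells, a scaled log2 difference of 0.40. The dim CXCL1 probe gave 15.6 ± 2.46 and 46.2 ± 5.08, in the same order, a scaled log2 difference of 1.26. Both probes were higher with HOXA5 short RNA, by more than the single-spot SD of 0.19 and 0.29 for their signals. The mean was 0.83, or 1.78-fold, which put CXCL1 just below the 2-fold threshold, with TNFAIP3 just above it.

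For CXCL2 (NM_002089), the bright probe gave 43.6 ± 4.66 in mock cells and 65.1 ± 6.75 in HOXA5 short cells, a scaled log2 difference of 0.27. The dim probe gave 17.3 ± 2.41 and 44.0 ± 4.76, in the same order, a scaled log2 difference of 1.04. Both probes again had the higher signal on the HOXA5 short array. The mean was 0.66, or 1.58-fold.

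The probes of one gene were 0.86 apart for CXCL1 and 0.77 apart for CXCL2. Among the 2208 genes with exactly 2 probes compared, the median gap was 0.209, and a gap at least as large as that of CXCL1 was found in 4.66% and one at least as large as that of CXCL2 in 6.07%. The dim probes lay among spots of which 2 of 28 (CXCL1) and 3 of 36 (CXCL2) differed 2-fold, below the 10% used to call a zone of the array uneven, while the bright probes had 0 of 28 and 0 of 33. After the mean difference of the surrounding spots was subtracted, the dim probes gave 0.99 and 0.73 and the bright probes 0.52 and 0.29. Normexp background correction gave 0.24 for the dim and 0.34 for the bright CXCL1 probe, and 0.22 and 0.17 for CXCL2. The normexp offset of 50 is larger than the signals of both dim probes and shrinks their differences. This setting therefore cannot decide what the gap comes from. The part of local unevenness or of low signal in the gap was not tested. In all of these settings both probes of both genes kept the higher signal on the HOXA5 short array.

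CXCL8 encodes interleukin-8, another neutrophil chemokine. Its probe (NM_000584) was close to the detection limit, with 8.28 ± 1.78 in mock cells and 14.3 ± 2.24 in HOXA5 short cells, where the lowest signals well above background were 7.74 and 7.996, respectively. The scaled log2 difference was 0.48, about as large as the single-spot SD of 0.48 at signals from 5 to 15. With normexp background correction it was -0.02. The normexp offset is larger than both CXCL8 signals and shrinks their difference, so this setting cannot decide the direction. The difference was above 0 in 11 of 12 alternatives, of which 8 changed its value, and normexp was the exception. With a difference about as large as the single-spot SD, the direction of CXCL8 was not settled at this signal.

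CCL20 encodes the ligand of CCR6, which draws T cells and dendritic cells to mucosal surfaces, and is known as an NF-kB target in intestinal epithelium. Its probe (NM_004591) gave 12.03 ± 2.45 in mock cells and 13.3 ± 2.79 in HOXA5 short cells. The 2 signals overlapped within their scanner errors. The scaled log2 difference was -0.16, smaller than the single-spot SD of 0.48. It was 0.02 after the mean difference of the surrounding spots was subtracted. Of the chemokine receptors, CCR6 gave -0.24, and CXCR1 and CXCR2 were well above background on neither array.

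**Figure D3:**
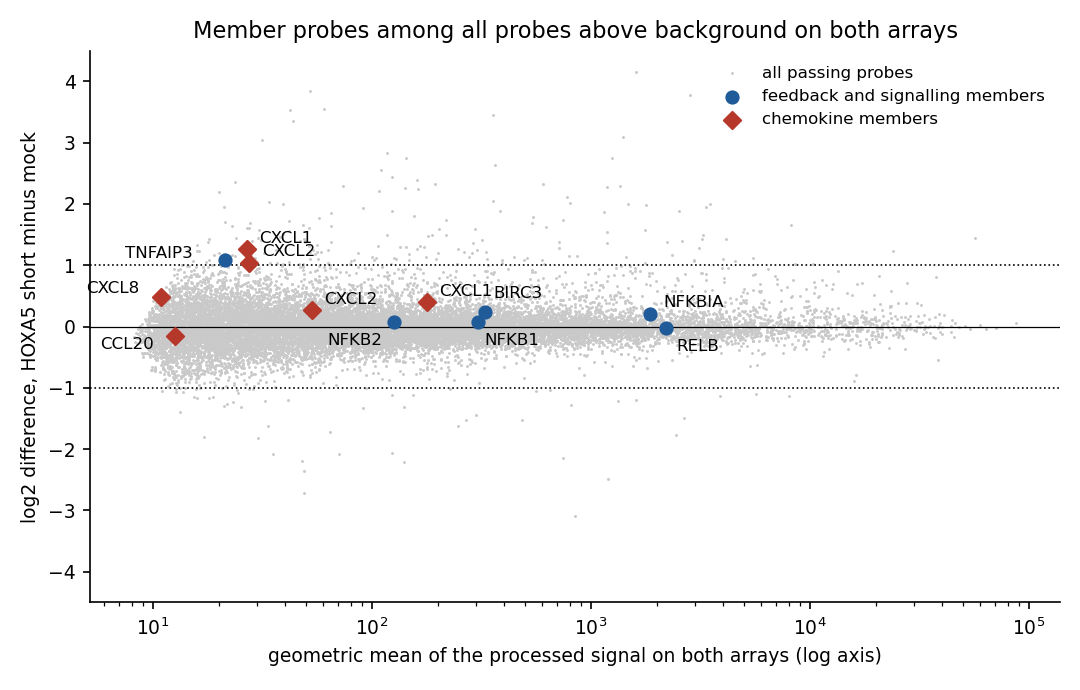
Log2 difference, HOXA5 short minus mock, against the geometric mean of the processed signal on both arrays (log axis) for the 17938 probes above background on both arrays (grey) and for the probes of the feedback and signalling genes (blue circles) and the chemokines (red diamonds). Dotted lines mark 2-fold, and all 3 probes past it have signals between 15 and 50, while the 7 probes above 50 lie between -0.02 and 0.40.

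The largest differences were measured at low signal. By the geometric mean of both arrays, the 3 probes past 2-fold all had signals from 15 to 50. In that class 1.30% of all probes were at least 2-fold higher. The 7 probes above 50 by the same mean ran from -0.02 for RELB to 0.40 for the bright CXCL1 probe, with a median of 0.21. In all, 8 of the 12 probes differed by more than the single-spot SD of their signal class, as did 36.7% of all probes compared, with CXCL8 at the border. The TNFAIP3 probe, both CXCL1 probes and the dim CXCL2 probe, 4 in all, differed by more than 2 SD, as did 11.2% of all probes. None of the 30 spots of the 10 genes lay in an uneven zone.

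Other genes of the pathway were taken by role. Of 96 such genes, 63 were compared on both arrays, 7 were detected on 1 array and 26 were not well above background. Of the 63, 1 was at least 2-fold higher and 0 lower, against 0.642% and 0.258% of all genes. Of these 63, 34 lay above 0 (45.4% of all genes), and the median log2 difference was 0.03. The 1 gene past 2-fold was MAP3K7, which encodes the kinase TAK1 upstream of IKK, at 1.20, and its spot lay in an uneven zone. With uneven zones left out, 0 of 61 were past 2-fold.

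Of the inducers, 17 of 23 receptors and adaptors were compared, from -0.33 for TRAF3, an adaptor that holds the alternative pathway in check, to 0.27 for TNFRSF12A, the receptor of TWEAK, with a median of 0.06. The 11 IKK and upstream kinases compared had a median of -0.07. The lowest was TBK1, an IKK-related kinase, at -0.41. Of the other NF-kB subunits and IkB proteins, 6 of 7 were compared, with a median of -0.01. They ran from -0.28 for NFKBID to 0.34 for NFKBIE, which encodes IkB-epsilon, a further inhibitor induced by NF-kB. The 7 genes of the wider lists detected on 1 array were all detected with HOXA5 short RNA. Over all probes this array also had more above background, 18953 against 18422 on the mock array, with 17938 on both. Ratios for these genes were taken after scaling and leave out the scanner errors, so they are not lower limits. Divided by the gene's own mock signal, they were 1.62-fold for NFKBIZ, an atypical IkB protein, 1.41-fold for TLR5 and 1.14-fold for LTB. Divided by the smallest mock signal well above background, they were 1.27-fold for CXCL5, 1.1-fold for IL32 and 1.04-fold for OTULIN. IL1RAP allowed none.

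The other negative regulators, 7 of 11 compared, had a median of -0.01 and ran from -0.25 for the deubiquitinase OTUD7B to 0.31 for ZC3H12A, an RNase that degrades cytokine mRNAs. Other NF-kB target genes had a median of 0.12, with 10 of 14 above 0. Without the filter on background their median was -0.01, and the median of all genes was then -0.11, against -0.02 with the filter. They ran from -0.22 for the matrix protease MMP9 to 0.53 for the proteoglycan SDC4. None of the 14 reached 2-fold. ICAM1, VCAM1, SELE, TRAF1, PTGS2 and NOS2 were not well above background.

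Of 20 other chemokines and cytokines, 7 were compared, with a median of 0.04. They ran from -0.22 for CSF1, a macrophage growth factor, to 0.58 for CXCL10, a T-cell chemokine that interferons also induce. CXCL8, CXCL1 and CXCL2 lie in 1 chemokine cluster on chromosome 4 with CXCL6, CXCL5 and CXCL3, and these neighbours were named for their position after their values were seen. CXCL3, close in function to CXCL1 and CXCL2, gave 16.4 ± 2.29 in mock cells and 18.5 ± 2.54 in HOXA5 short cells, a scaled log2 difference of -0.13. CXCL3 thus differed by less than the single-spot SD of 0.29, and CXCL6 was detected on neither array. PF4V1, PF4 and PPBP, which lie in the same stretch, were not analysed here.

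**Figure D4:**
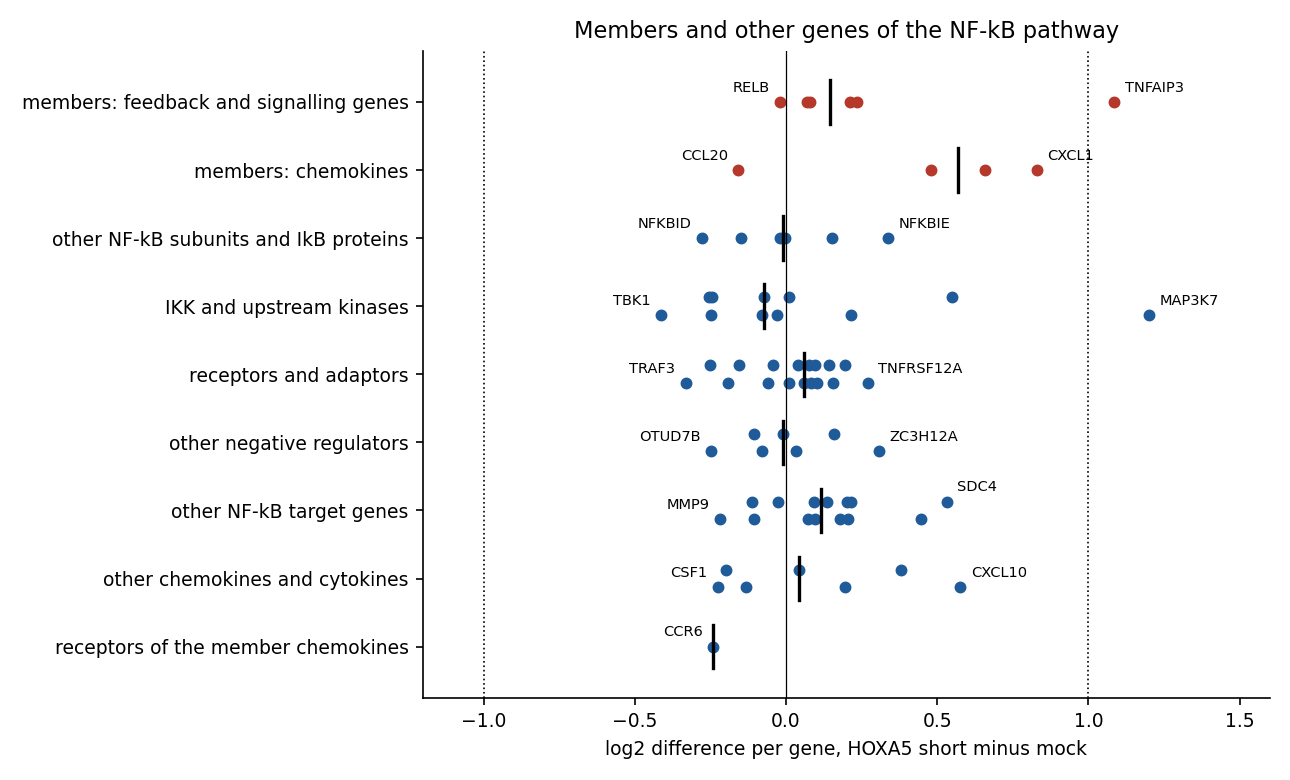
Log2 difference per gene, HOXA5 short minus mock, for the feedback and signalling genes and chemokines (red) and for the wider lists of the NF-kB pathway (blue), each point a gene compared on both arrays and black bars the medians. Dotted lines mark 2-fold, the medians of the wider lists with more than 1 gene lie between -0.07 and 0.12, and only TNFAIP3 and MAP3K7 lie past 2-fold.

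**Figure D5:**
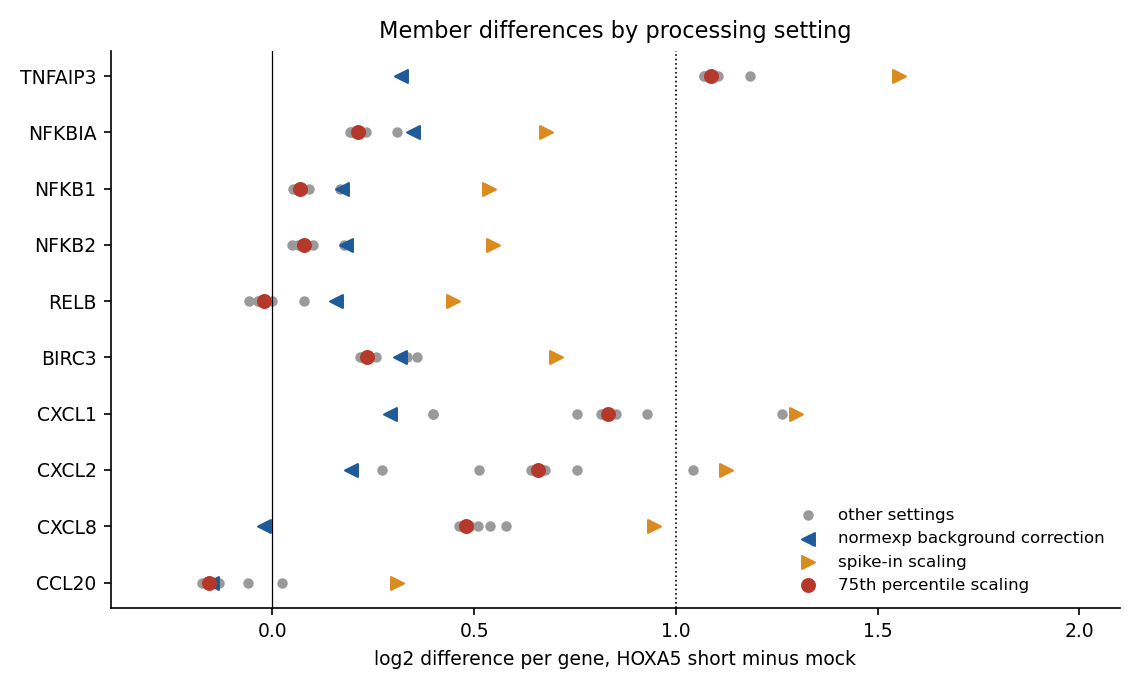
Log2 difference, HOXA5 short minus mock, of each of the 10 genes under the scaling used here (red circles), normexp background correction (blue triangles), scaling to the spike-ins (orange triangles) and the other settings (grey). The dotted line marks 2-fold, TNFAIP3 is past it in 7 of the 8 alternatives that changed its value and falls to 0.32 with normexp, and CXCL1 and CXCL2 pass it with the spike-ins (1.30 and 1.13) and with their dim probe alone.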

How the data were processed

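Per the file headers, spots were quantified with Agilent Feature Extraction 11.5.1.1 on a design annotated on hg19. The deposited scanner files hold the intensity of each spot after background correction (the processed signal), its error, and flags of 0 or 1 per spot. The authors also deposited log2 values, whose 2 columns are mirror images, so only their difference was used, as an alternative. The scaling behind that table is not given in the sources used here.

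Log2 processed signals were averaged over the spots of a probe without spots marked as outliers, and the 75th percentile of all non-control probes (35.6 on the mock array, 44.0 on the HOXA5 short array) was subtracted. A probe was compared when well above background on both arrays, and 17938 probes passed. A gene was the mean of its passing probes, and was counted when it differed 2-fold. Transcript accessions were matched without versions to RefSeq GRCh38.p14 names, which named 30004 probes (59.3%). A gene detected on 1 array was given a ratio without an error. Its bright signal was divided by its own dim signal or, if that is lower, by the smallest well-above-background signal of the dim array. Signals were scaled before this division. The error of a difference combines the scanner errors of both arrays. The single-spot SD came from 592 probes with at least 5 spots, and was 0.21 over all of them. Signal classes were set by the geometric mean of the signals on both arrays. A spot lay in an uneven zone when at least 10 well-measured spots within 4 rows and 4 columns existed and at least 10% of them differed 2-fold.

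There was 1 array per group, so no difference was tested and precision is limited by the number of arrays. The 10 genes, the lists of other pathway genes and markers, and the tests were chosen with earlier results of these data known. Named are HOXA5, the 10 genes, each gene of a wider list past 2-fold and otherwise its lowest and highest gene. Named in addition, after their values were seen, are RELA, TBK1, genes detected on 1 array, target genes not above background and neighbours in the chemokine cluster. Markers are named as listed. Alternatives covered scaling (median, detected probes, quantile, cyclic loess, spike-ins), normexp (offset 50), the deposited log2 table, filters, probe rules, array position and thresholds. Calculations used Python 3.11.15, pandas 2.3.3, Biopython 1.88 and limma 3.58.1 in R 4.3.3, and the steps were tested on simulated data. Probe sequences and proteins were not used here. Of the myeloid and lymphoid markers, 1 gene is not reported here.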

Additional observations from a re-analysis of the deposited data

How the results depend on the processing

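The count of the 10 genes at least 2-fold higher was 1, against 0.642% of all genes. It was 3 at 1.5-fold (2.78% of all genes), 3 with scaling to the spike-ins (3.335%) and 3 with the dimmest probe of each gene (0.859%). The dimmest probe was a setting chosen after seeing the data. The count was 0 at 3-fold (0.175%) and 0 with normexp background correction (0.31%). It was also 0 among probes with signals above the median of detected probes (0.5%). That filter kept 6 of the 10 genes and left out TNFAIP3. The normexp offset of 50 shrinks differences at signals below it. The other settings gave 1, with 0.392% to 2.06% of all genes. Scaling to the spike-ins moved the median of all genes to 0.44 and that of the 10 genes to 0.69. The 7 spike-ins had a median log2 difference of -0.47 after the scaling used here. Of the wider pathway genes, 1 was past 2-fold, 3 were with the spike-ins, and 0 at 3-fold, with local mean subtraction, with normexp, with signals above the median and without uneven zones. Of all genes, 0.392% were at least 2-fold higher with local mean subtraction and 0.408% without uneven zones, and the other shares are given above. TNFAIP3 ran from 0.32 to 1.55 and was past 2-fold in 7 of the 8 alternatives that changed its value. The others could not change it, since it has 1 probe, outside any uneven zone. CXCL1 ran from 0.29 to 1.30, and with its bright probe alone gave 0.40. CXCL2 ran from 0.20 to 1.13, and with its bright probe alone gave 0.27. No 2-fold call reversed its direction. No paired analysis was possible because each group has 1 array and no result comes from a test. The spread between cultures cannot be read from these arrays. Several of the largest differences rest on single spots with signals below 50.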
